A study of Mus musculus with 151 samples.

Results

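The cells described here are 46 P14_iOHCs, ordered by their own level of *Slc26a5*, in a series of single cells that also holds 55 P14_WT and 50 P30_WT inner hair cells (IHCs). The iOHCs, or induced outer hair cells (OHCs), came from C57BL/6 mice of the genotype vGlut3-P2A-iCreER/+; Tbx2 flox/-; Ai9/+, given tamoxifen at postnatal day 2 (P2) and P3 and sampled at P14. The P14_WT IHCs, used as a reference level, came from vGlut3-P2A-iCreER/+; Ai9/+ mice of the same strain, treatment and age. All cells carried the Cre knock-in and the Tdtomato reporter. The Cre was driven from the *Slc17a8* (vGlut3) locus, 1 allele of *Tbx2* was a germ-line deletion and the other was floxed at exon 2, so these cells had a single *Tbx2* allele before tamoxifen. Tdtomato+ cells were picked by hand, and among the cells with the deletion those of smaller size were taken. Each library is 1 cell, the mice behind the cells are not named, and counts per gene do not show whether a cell lost exon 2.

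*Slc26a5* encodes Prestin, the motor protein of the lateral membrane by which OHCs change length with voltage. OHCs also depend on calcium-binding proteins such as oncomodulin, on potassium channels and on the cholinergic receptor of efferent nerve endings. IHCs instead release glutamate, loaded by vGlut3 and released with otoferlin, at ribbon synapses. Tbx2 is a T-box transcription factor of IHCs, and Ikzf2 is a transcription factor of OHCs.

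The cells were selected on *Slc26a5*, so its level is the measure that chose them and is not a result. The level was the count divided by the total of the cell, times 1000000 (CPM). The 23 cells with the highest values are called Slc26a5-high, and the 23 with the lowest Slc26a5-low. *Slc26a5* (chromosome 5 of GRCm38, from 21810655 to 21865604, minus strand) ranged from 1040 to 2787 CPM in the Slc26a5-high cells, with a median of 1472 CPM. In the Slc26a5-low cells it ranged from 142 to 1027 CPM, with a median of 640 CPM. The values declined without a break at the boundary, where rank 23 had 1040 CPM and rank 24 had 1027 CPM. The 2 means, 1669 and 622 CPM, differed 2.68-fold. All 46 cells were far from the P14_WT IHCs, in which only 2 of 55 cells had a count and the highest level was 4.01 CPM. A comparison of the 2 sets of cells therefore asks how the other genes of iOHCs vary with Prestin, and it has no iOHC without Prestin in it.

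With no animal named, each set counts as a single sample, so no test was made and no p-value is given. Differences are given as the ratio of mean CPM (Slc26a5-high over Slc26a5-low), beside the spread between cells. Beside it stand 3 other measures: the share of the 529 high-low pairs of cells in which the Slc26a5-high cell had the higher level, Spearman's rho with *Slc26a5* over the 46 cells, and the ratio after leaving out each cell in turn. A rho over cells that may share mice and that share the total as a divisor is a description.

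The 2 sets were alike in depth. Totals ranged from 6059570 to 22963196 counts in the Slc26a5-high cells and from 6878234 to 22555873 in the Slc26a5-low cells, where 3 counts, the limit that a count of 0 allows, were 0.131 to 0.495 CPM and 0.133 to 0.436 CPM. Detected genes had a higher mean in the Slc26a5-low cells, 9328 ± 2063 against 8690 ± 1318 (SD, n = 23 cells each), with nearly equal medians of 8704 and 8779. At an equal total of 6059570 counts the means were 8838 ± 2055 and 8125 ± 1283, and the medians 8277 and 8275. No 2 of the 46 libraries were identical.

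Some cells stood apart in either of 2 ways, and most of them were Slc26a5-low. The first kind was 10 cells with a supporting-cell score, the mean log2(CPM + 1) of 17 marker genes, above that of every P14_WT IHC (highest 4.21). Of these cells 7 were Slc26a5-low and 3 Slc26a5-high. The second kind was 4 cells, P14_iOHC 1, 18, 29 and 44, that expressed *Slc7a14*, a transporter-like gene of IHCs, at 126 to 320 CPM. No other iOHC exceeded 0.106 CPM for *Slc7a14*, and the lowest of the 55 P14_WT IHCs had 99.0 CPM. All 4 cells were Slc26a5-low, at ranks 32, 37, 45 and 46 of 46, and none of them was among the 10. They were picked as iOHCs, and their *Slc26a5*, from 142 to 799 CPM, was above that of every P14_WT IHC. Whether they hold RNA of an IHC picked with them was not tested. Without the 10 cells the mean number of detected genes was higher in the Slc26a5-high cells, by 143, and without all 14 cells by 406. Values without either kind of cell are given beside some of the results that they move.

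**Figure D1:**
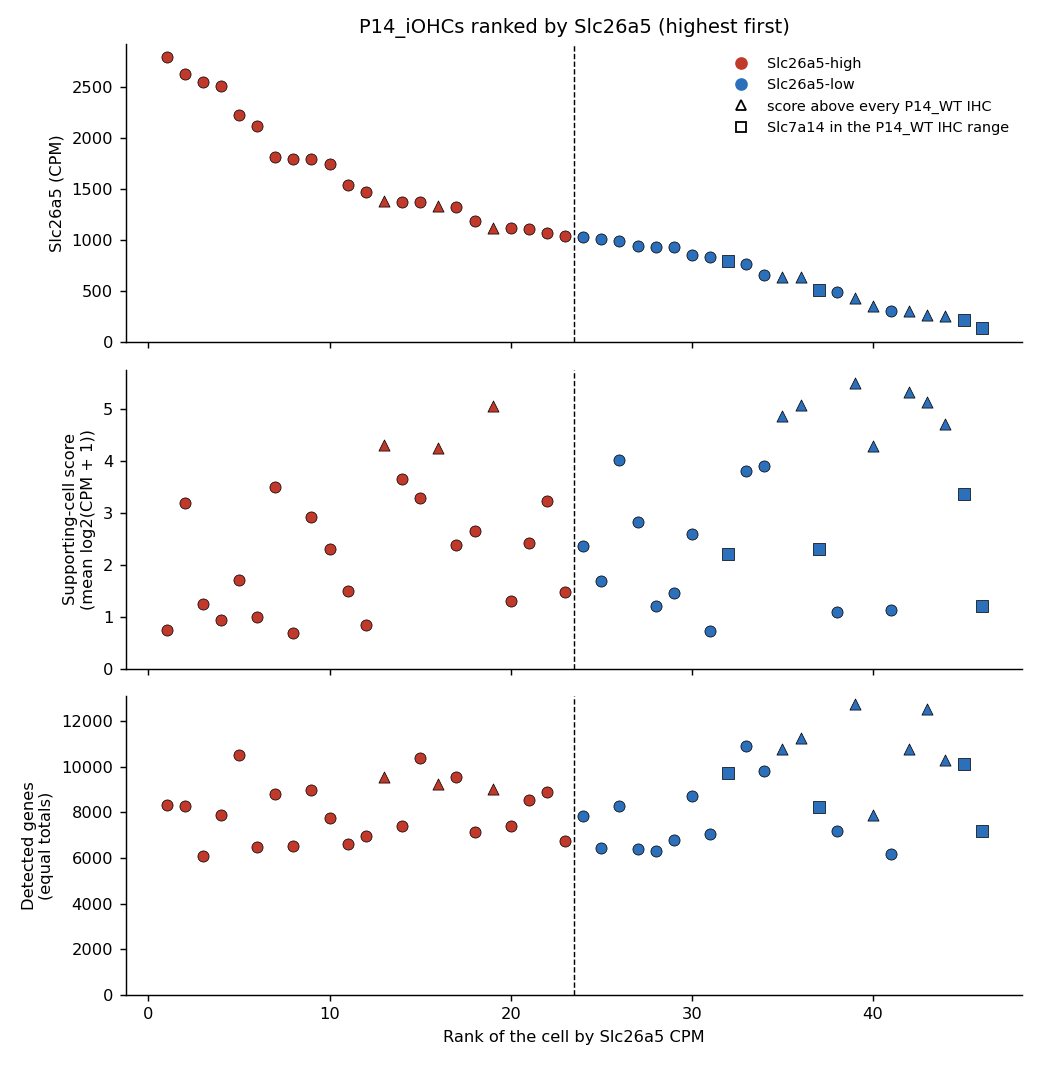
Each point is 1 P14_iOHC, placed by its rank in *Slc26a5* (x axis, highest first, dashed line between ranks 23 and 24), with *Slc26a5* in CPM, the supporting-cell score and the number of detected genes at an equal total of 6059570 counts on the y axes. Triangles are the 10 cells above every P14_WT IHC in the score, 7 of them Slc26a5-low, and squares are the 4 cells with *Slc7a14*, all Slc26a5-low.

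Of 55291 genes, 11159 other than *Slc26a5* reached 5 counts in 10 or more of the 46 cells and were compared. The mean CPM was more than 2-fold higher in the Slc26a5-high cells for 811 genes (7.27%) and more than 2-fold lower for 1547 genes (13.9%), and the median log2 ratio was -0.08. This split depended on the scaling: with DESeq2 size factors in place of the totals 1679 genes were higher and 1184 lower, and the median was 0.18, so list medians are read against the median of all genes. Without the 10 cells high in the score these shares were 11.1% and 13.3%, without the 4 *Slc7a14* cells 9.0% and 14.3%, and without all 14 cells 14.6% and 13.6%. These percentages are the background against which the counts for gene lists are read.

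OHC genes tended to go with *Slc26a5*, but by small factors. Of 18 OHC regulators and markers, all of which passed the filter, 17 had a higher mean in the Slc26a5-high cells, none by more than 2-fold, and the median log2 ratio was 0.55 against -0.08 over all genes. The exception was *Nr2f2*, a nuclear receptor, at 73.8 and 78.9 CPM. Its log2 ratio of -0.10 was 0.24 with DESeq2 size factors, where the median of all genes was 0.18. Without the 10 cells high in the score the median of the list was 0.36, without the 4 *Slc7a14* cells 0.43, and without all 14 cells 0.21.

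*Sri*, which encodes the calcium-binding protein sorcin, ranged from 1446 to 3871 CPM in the Slc26a5-high cells (median 2739) and from 485 to 3803 CPM in the Slc26a5-low cells (median 1767). The ranges overlapped at the top, while 8 Slc26a5-low cells and no Slc26a5-high cell lay within the range of the P14_WT IHCs (123 to 1353 CPM). All 8 were among the cells set apart above, either by *Slc7a14* or by the supporting-cell score. The mean of *Sri* was 1.55-fold higher, 82.4% of pairs were in that direction, and rho was 0.66. *Aqp11*, an aquaporin of intracellular membranes, ranged from 711 to 2326 CPM (median 1651) against 242 to 2968 CPM (median 805), with 84.1% of pairs. The highest cell of all was Slc26a5-low, so the overlap was wide and the medians differed more than the means, whose ratio was 1.62. *Lpin2*, a phosphatidate phosphatase, ranged from 741 to 2893 CPM (median 1514) against 166 to 2077 CPM (median 659), with 80.5% of pairs and a rho of 0.64.

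*Olfm1*, which encodes a secreted olfactomedin, had the largest ratio of the list. It ranged from 260 to 1488 CPM (median 709) against 0.187 to 1009 CPM (median 438), a ratio of 1.92, which lay between 0.88 and 1.03 on the log2 scale when any 1 cell was left out. *Strip2* ranged from 365 to 1882 CPM (median 947) against 1.12 to 2341 CPM (median 555). In both genes the lowest Slc26a5-low cell was near 0, while every Slc26a5-high cell was well above it. It was the same cell in both, P14_iOHC 44, which is among the *Slc7a14* cells. The next lowest Slc26a5-low cells had 39.9 CPM of *Olfm1* and 71.2 CPM of *Strip2*.

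The transcription regulators *Ikzf2* and *Lbh* and the calcium buffer oncomodulin varied less with *Slc26a5*. *Ikzf2* ranged from 93.5 to 1866 CPM (median 281) against 0 to 938 CPM (median 200), with 63.1% of pairs. Its log2 ratio of 0.42 was 0.11 without a single cell, 0.02 without the 14 cells, and -0.02 among the 18 Slc26a5-high and 16 Slc26a5-low cells with totals of 11814928 counts or more. *Lbh* ranged from 316 to 2268 CPM (median 981) against 0.280 to 2301 CPM (median 745). *Ocm*, the gene with by far the most counts on the list, ranged from 24511 to 74981 CPM (median 41212) against 614 to 69471 CPM (median 28071). The only iOHC without *Ikzf2* counts was P14_iOHC 18, and the lowest value of *Lbh* and *Ocm* was that of P14_iOHC 44, both among the 4 *Slc7a14* cells. Without the 14 cells the log2 ratio of *Ocm* was 0.03 and that of *Lbh* 0.08, whereas it was 0.24 for *Sri*, 0.27 for *Aqp11*, 0.39 for *Lpin2* and 0.60 for *Olfm1*.

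**Figure D2:**
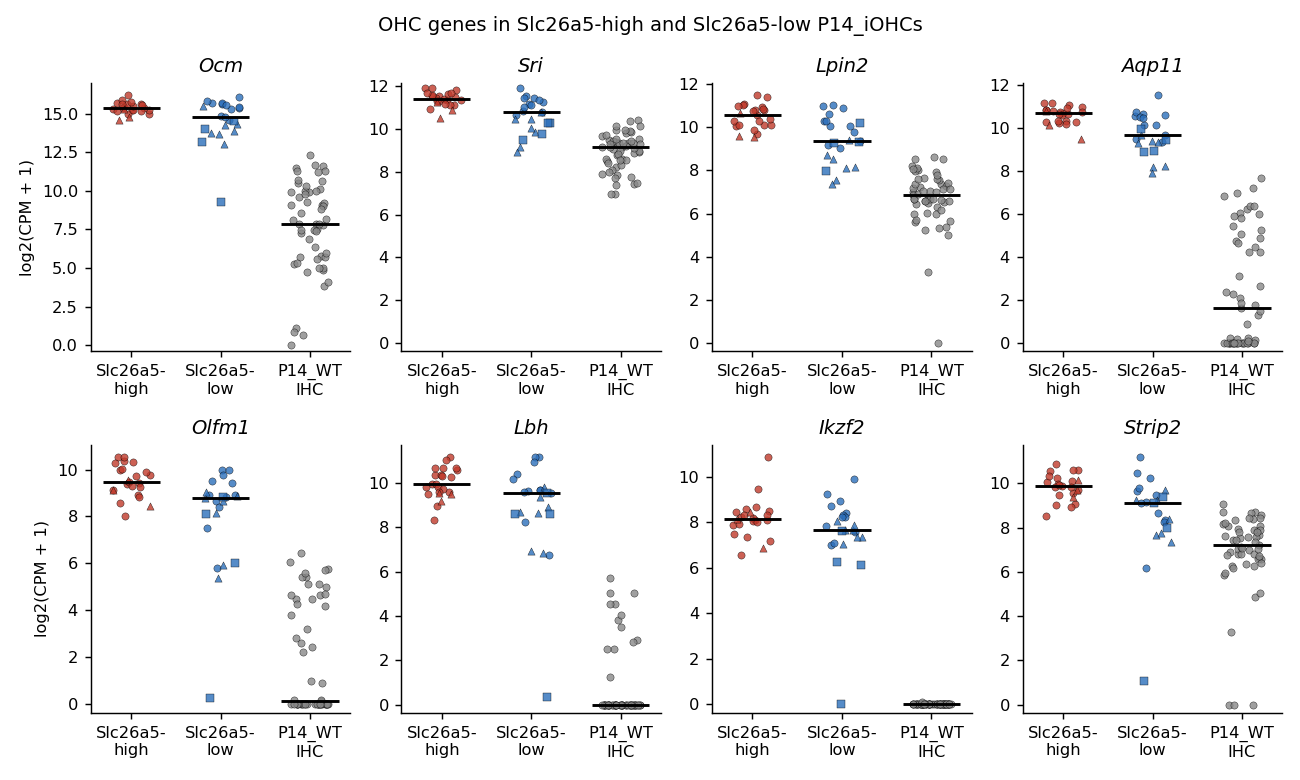
Levels of 8 OHC genes as log2(CPM + 1) on the y axes in single Slc26a5-high (red, 23), Slc26a5-low (blue, 23) and P14_WT IHC (grey, 55) cells, with bars at the median. Triangles and squares are the 10 and the 4 cells described above. The medians of *Sri* were 2739 CPM in the Slc26a5-high and 1767 CPM in the Slc26a5-low cells, and for all 8 genes the lowest blue points lie below the lowest red points.

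The study's own list of OHC genes, drawn by the authors from OHCs of another study and the P30_WT IHCs of this series, had 150 members besides *Slc26a5*, of which 139 passed the filter. The list was not made on P14 cells. Of the 139, 110 had a ratio above 1, 18 (12.9%) were more than 2-fold higher and 7 (5.04%) more than 2-fold lower, against the background of 7.27% and 13.9%. The median log2 ratio was 0.42, and it was 0.12 without the 14 cells, where 13 were more than 2-fold higher and 9 lower, against 14.6% and 13.6% of all genes. With all cells, the 7 lower genes were *Efna1*, *Krt8*, *H2-D1*, *Megf6*, *Plat*, *Pon2* and *Nfix*, with log2 ratios from -2.08 to -1.10. Of the 18 higher genes, 4 are named here after their values were seen. *Hsd11b1*, the enzyme that reactivates glucocorticoids, was at 648 ± 432 and 296 ± 339 CPM (SD, n = 23 cells each), with 78.3% of pairs. *Atp8a1*, a phospholipid flippase, was at 311 ± 202 and 152 ± 139 CPM. *C1ql1*, a secreted synaptic organiser, was at 101 ± 117 and 34.6 ± 64.6 CPM, and *Wfdc1*, a secreted protease inhibitor-like protein, at 28.1 ± 38 and 5.76 ± 12.3 CPM, both with SDs larger than the means.

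Efferent and ion-channel genes showed the same small differences. *Chrna10* and *Chrna9*, the subunits of the nicotinic receptor of OHCs, had medians of 321 and 470 CPM in the Slc26a5-high cells and 184 and 301 CPM in the Slc26a5-low cells. Both ranges overlapped widely, with 72.4% and 67.1% of pairs in that direction. Of 6 efferent synapse genes that passed the filter, 5 had a ratio above 1 and none was past 2-fold, and their median log2 ratio went from 0.43 to 0.06 without the 14 cells, where 4 were above 1. Of 10 potassium channel genes, 9 had a ratio above 1 and none was past 2-fold, with a median log2 ratio of 0.26. Leaving out the 10 cells high in the score, 5 were above 1, with a median of 0.02, and without all 14 cells 7 were, with a median of 0.21. *Kcna10*, with the largest log2 ratio of that list at 0.74, was at 1203 ± 962 and 718 ± 632 CPM, and its log2 ratio was 1.09 without the 4 cells and 0.61 without the 10.

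Of 10 calcium buffer genes, all of which passed the filter, 6 had a ratio above 1 and none was past 2-fold. *Calb2*, calretinin, which is abundant in IHCs, had a lower mean in the Slc26a5-high cells (1876 against 2431 CPM) but a higher median (1905 against 1168 CPM), and in 69.4% of pairs the Slc26a5-high cell was higher. The mean of the Slc26a5-low cells held 1 cell at 17827 CPM, P14_iOHC 1, and without the 4 *Slc7a14* cells the log2 ratio went from -0.37 to 0.66. Of 7 calcium pump and exchanger genes, *Slc24a3* was more than 2-fold lower, and its log2 ratio of -1.04 was 0.61 without the 4 cells. *Atp2b2*, the calcium pump of stereocilia, was at 469 ± 236 and 318 ± 184 CPM, with 69.6% of pairs.

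Of 10 other SLC26 family members only *Slc26a2*, a sulfate transporter, passed the filter. It had counts in 8 Slc26a5-high and 10 Slc26a5-low cells, was at 24.3 ± 44.3 and 13.5 ± 27.2 CPM, and in 49.2% of pairs was higher in the Slc26a5-high cell. Its log2 ratio of 0.84 was 2.58 without the 14 cells, so its ratio rested on few cells. Genes of the cortical lattice, the spectrin and actin skeleton under the lateral membrane, were mostly lower in the Slc26a5-high cells with all cells used. Of 15 of its 20 genes that passed the filter, 3 had a ratio above 1, with a median log2 ratio of -0.57. Past 2-fold, 1 (6.67%) was higher and 4 (26.7%) lower, against 7.27% and 13.9% of all genes. Without the 10 cells high in the score 7 were above 1, with a median of -0.13. Past 2-fold, 2 were then higher and 1 lower, against 11.1% and 13.3% of all genes. Over all cells with DESeq2 size factors the median was -0.03, where all genes had 0.18. *Sptb*, the spectrin among the OHC markers, was at 275 ± 177 and 226 ± 166 CPM.

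Genes of stereocilia and mechanotransduction were close to equal in the 2 sets. Of 23 that passed the filter, 17 had a ratio above 1, and the median log2 ratio was 0.19. Past 2-fold, 1 (4.35%) was higher and 1 (4.35%) lower, against 7.27% and 13.9% of all genes. The median was 0.04, with 12 above 1, without the 10 cells high in the score. The higher gene was *Cdh23*, the upper part of the tip link. It ranged from 64.8 to 720 CPM (median 418) in the Slc26a5-high cells and from 33.7 to 381 CPM (median 190) in the Slc26a5-low cells. The ranges overlapped, 81.3% of pairs were in that direction, and rho was 0.59. The log2 ratio, 1.08, was 1.00, 1.06 and 0.92 without the 10, the 4 and the 14 cells. *Grxcr2*, a protein of the stereocilia base, ranged from 429 to 2345 CPM (median 868) against 95.3 to 1671 CPM (median 513), with 81.1% of pairs. *Strc*, which encodes the stereocilin of the OHC bundle, had medians of 203 and 118 CPM. The lower gene, *Myo3a*, a stereocilia tip myosin, was at 15.7 ± 42.4 and 33.1 ± 44.1 CPM, and its log2 ratio of -1.08 was -0.21 without the 4 *Slc7a14* cells.

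Of 18 hair cell transcription factors that passed the filter, 13 had a ratio above 1, with a median log2 ratio of 0.38. Past 2-fold, 2 (11.1%) were higher and 1 (5.56%) lower, against 7.27% and 13.9% of all genes. *Gfi1*, a zinc-finger repressor of hair cells, ranged from 11.9 to 841 CPM (median 309) against 13.4 to 468 CPM (median 136), with 74.3% of pairs. The log2 ratio of *Gfi1* was 1.05, and 0.87 without the 10 cells high in the score. *Rfx1* was the other, at 9.50 ± 21.2 and 4.57 ± 10.6 CPM with counts in 8 and 9 cells, so its ratio rested on few cells. *Nfix*, also one of the study's OHC genes, was lower, with medians of 2.89 and 44.1 CPM. Its log2 ratio of -1.10 was -0.88 without the same 10 cells. *Gata3*, which acts early in the prosensory domain, was lower by a small and regular amount, from 186 to 719 CPM (median 430) against 237 to 1001 CPM (median 569), and only 22.3% of pairs had the higher level in the Slc26a5-high cell. The log2 ratio of *Gata3* was -0.51, and -0.44 without the 14 cells. Of 10 nuclear hormone receptors none was past 2-fold. Their median log2 ratio of -0.28 was 0.21 with DESeq2 size factors, where the median of all genes was 0.18. *Nr3c1*, the glucocorticoid receptor, was at 69.0 ± 59.2 and 39.1 ± 52.6 CPM, and *Thra*, a thyroid hormone receptor, at 24.9 ± 28.9 and 48.5 ± 40.5 CPM.

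General hair cell genes were present in both sets. Of 11 hair cell markers, 10 had a ratio above 1, with a median log2 ratio of 0.30. *Gfi1* and *Cdh23* were the 2 past 2-fold (18.2%), against 7.27% of all genes. Without the 10 cells high in the score 9 were above 1, with a median of 0.10. Past 2-fold, 1 (9.09%) was then higher, against 11.1% of all genes. The median was 0.42 without the *Slc7a14* cells and 0.20 without both kinds of cells. *Myo6*, an unconventional myosin, was at 1228 ± 380 and 1001 ± 513 CPM, *Myo7a* at 265 ± 184 and 240 ± 195 CPM, and *Pou4f3*, a factor for hair cell survival, at 704 ± 355 and 549 ± 332 CPM. The 13 protein-coding genes of the mitochondrial genome were all within 2-fold, with a median log2 ratio of 0.05. Of 83 cytosolic ribosomal protein genes, 68 had a ratio below 1, with a median log2 ratio of -0.20. It was 0.13 with DESeq2 size factors, below the 0.18 of all genes.

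IHC genes were lower in the Slc26a5-high cells on average, and the difference was smaller without the 4 *Slc7a14* cells. Of the study's IHC genes, drawn in the same way, 318 passed the filter and 71 did not. Of the 318, 244 had a ratio below 1, with a median log2 ratio of -0.50. More than 2-fold lower were 90 (28.3%) and more than 2-fold higher 7 (2.20%), against 13.9% and 7.27% of all genes. Without the 4 cells 70 were more than 2-fold lower and 20 higher, with a median of -0.25, against 14.3% and 9.0% of all genes. Without the 10 cells high in the score 85 (26.7%) were lower, against 13.3% of all genes. Without all 14 cells 49 were lower and 31 higher, with a median of -0.07, against 13.6% and 14.6% of all genes.

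Of 12 IHC markers that passed the filter, 4 (33.3%) were more than 2-fold lower, against 13.9% of all genes. The 4 were *Rps6ka2*, *Dnajc5b*, *Slc17a8* and *Igfbp5*. Without the 4 *Slc7a14* cells only 1 (8.33%), *Rps6ka2*, was, against 14.3% of all genes. The median log2 ratio of the list then went from -0.58 to 0.16. Leaving out the 10 cells high in the score, 6 (50%) were, against 13.3% of all genes, with a median of -0.89. Without all 14 cells 1 was, against 13.6% of all genes, with a median of 0.11. *Otof*, which encodes otoferlin, ranged from 0.104 to 803 CPM in the Slc26a5-high cells (median 272) and from 2.42 to 3235 CPM in the Slc26a5-low cells (median 153). The 4 highest iOHCs were the 4 *Slc7a14* cells, at 1320 to 3235 CPM, and 2 of them lay within the range of the P14_WT IHCs, which began at 2168 CPM. In the remaining cells the order of the means was the opposite, and the log2 ratio went from -0.79 to 0.52 without the 4 cells. *Slc17a8*, the vGlut3 gene and the locus of the Cre, ranged from 0 to 341 CPM (median 26.9) against 0 to 935 CPM (median 60.9), and 3 Slc26a5-low cells reached the range of the P14_WT IHCs. Its log2 ratio of -1.24 was 0.00 without the 4 cells.

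*Tbx2*, the gene targeted in these mice, ranged from 0.115 to 214 CPM (median 41.6) in the Slc26a5-high cells and from 0 to 427 CPM (median 41.2) in the Slc26a5-low cells. The medians were alike, while the highest cell, P14_iOHC 44 at 427 CPM, was also the cell with the least *Slc26a5*. In 10 Slc26a5-high and 9 Slc26a5-low cells *Tbx2* was at or above the lowest P14_WT IHC, 49.5 CPM. Its log2 ratio of -0.98 was -0.21 without the 4 *Slc7a14* cells, which had 136 to 427 CPM, and 0.29 without all 14 cells. *Igfbp5*, a secreted binding protein of insulin-like growth factors, was an IHC marker that also differed in the other cells. It ranged from 0.0691 to 4010 CPM (median 134) against 0.145 to 4743 CPM (median 539), with 30.4% of pairs and a rho of -0.50, and its log2 ratio of -1.18 was -0.71 without the 14 cells.

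Of 16 ribbon synapse genes, all of which passed the filter, 11 had a ratio below 1. Past 2-fold, 4 (25%) were lower and 1 (6.25%) higher, against 13.9% and 7.27% of all genes. The 4 were *Cabp1*, *Dnajc5b*, *Slc17a8* and *Rims2*. The median log2 ratio of the list was -0.25. Without the 4 *Slc7a14* cells 1, *Cabp1*, was past 2-fold lower and the median was 0.00. Without the 10 cells high in the score 5 were and it was -0.57, and without all 14 cells 3 were and it was -0.26. Of all genes 14.3%, 13.3% and 13.6% were past 2-fold lower in these settings. *Cabp2*, a calcium-binding regulator of the presynaptic calcium channel, was at 1956 ± 502 and 1651 ± 732 CPM, against 2520 ± 526 CPM (SD, n = 55 cells) in P14_WT IHCs, and 20 Slc26a5-high and 16 Slc26a5-low cells were at or above the lowest P14_WT IHC. *Pclo*, a ribbon scaffold, was the higher gene, at 41.3 ± 60.0 and 18.8 ± 29.9 CPM, with counts in 17 and 12 cells. *Rps6ka2*, a kinase gene, was at 0.407 ± 1.30 and 53.9 ± 136 CPM, with a median of 0 in both sets and counts in 6 and 11 cells.

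**Figure D3:**
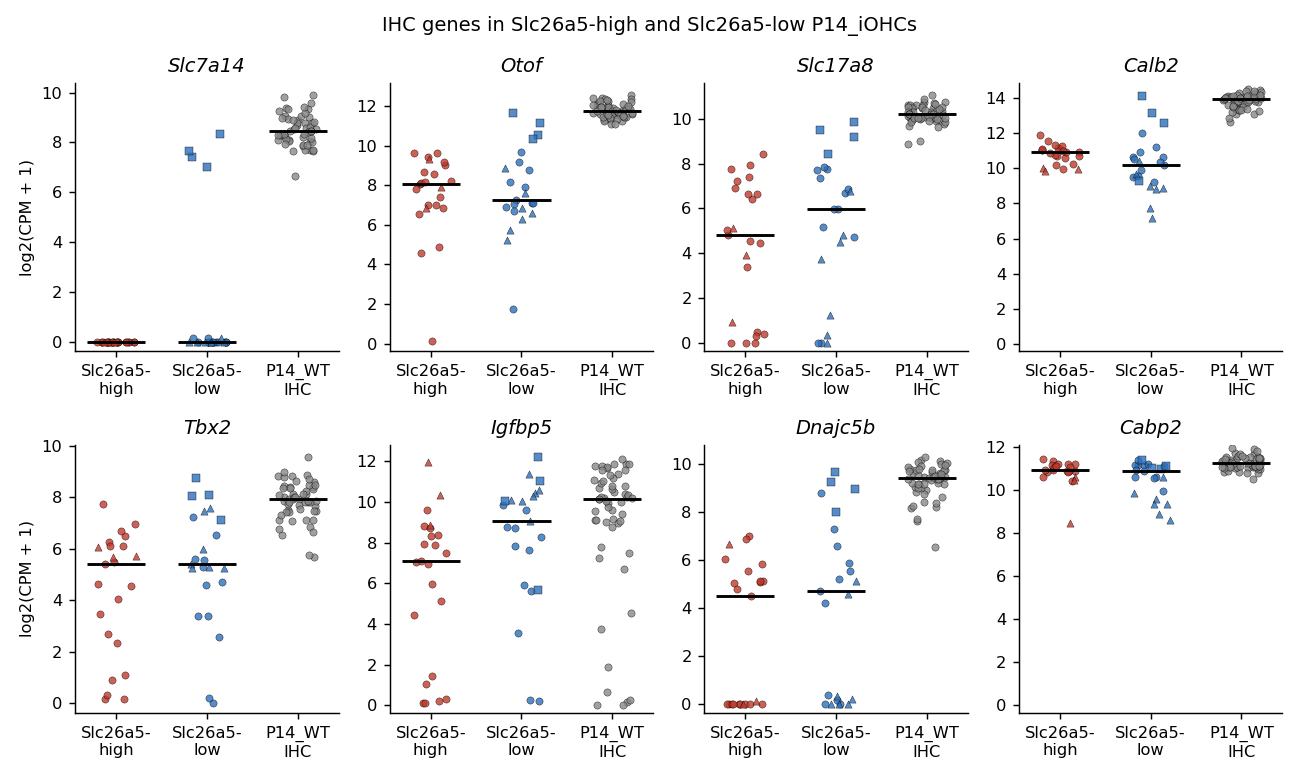
Levels of 8 IHC genes as log2(CPM + 1) on the y axes in single Slc26a5-high (red, 23), Slc26a5-low (blue, 23) and P14_WT IHC (grey, 55) cells, with bars at the median. The 4 squares are the cells with *Slc7a14* at 126 to 320 CPM, and in *Otof* they are the 4 highest iOHCs.

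Supporting-cell markers were higher in the Slc26a5-low cells. The score was 2.37 ± 1.28 in the Slc26a5-high and 3.07 ± 1.59 in the Slc26a5-low cells (SD, n = 23 cells each), against 1.41 ± 0.859 in 55 P14_WT IHCs, and its rho with *Slc26a5* was -0.36. Of 17 markers 12 passed the filter, and all 12 had a ratio below 1. Past 2-fold, 7 (58.3%) were lower and none higher, against 13.9% and 7.27% of all genes. The summed level of the 17 ranged from 2683 to 14203 CPM in the Slc26a5-high and from 2280 to 19781 CPM in the Slc26a5-low cells. Most of this sum was *Fbxo2*, which hair cells also express and which was at 5318 ± 2137 and 5612 ± 2209 CPM. *Epyc*, a proteoglycan gene of supporting cells, ranged from 0 to 713 CPM (median 0.198) against 0 to 7176 CPM (median 5.06). *Gjb6* and *Gjb2*, the connexins of supporting cells, had nearly equal medians of 339 and 178 CPM against 357 and 170 CPM, and log2 ratios of -0.88 and -0.73. These became 0.16 and 0.39 without the 10 cells high in the score, and the median of the list went from -1.32 to -0.28. Of the 12 markers, 5 then had a ratio above 1. Past 2-fold, 4 (33.3%) were lower and 1 (8.33%) higher, against 13.3% and 11.1% of all genes. The 10 cells were chosen by these markers and were mostly Slc26a5-low, so a smaller difference without them follows from that choice. In a picked cell, RNA of a second cell and expression by the iOHC cannot be told apart.

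Markers of other cell types were detected in fewer numbers. None of 6 neuron and 5 blood markers passed the filter, and 1 of 9 immune, 4 of 7 glia, 3 of 7 mesenchyme and 2 of 6 stria vascularis markers did. The 3 mesenchyme markers had ratios below 1, 2 of them past 2-fold, and the summed level of the 7 was 265 ± 489 CPM in the Slc26a5-high and 516 ± 995 CPM in the Slc26a5-low cells, where it reached 4522 CPM. The sums were 118 ± 253 and 119 ± 223 CPM without the 10 cells high in the score. The stria vascularis markers summed to 17.1 ± 28.4 and 57.6 ± 91.6 CPM, and to 14.1 and 18.3 CPM without the same 10 cells. Their part in the other differences was not tested. *Sox10*, a factor of glia and of some supporting cells, was at 24.7 ± 36.4 and 68.3 ± 89.1 CPM.

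Genes that respond to tissue dissociation were also higher in the Slc26a5-low cells. Of 21 that passed the filter, 16 (76.2%) were more than 2-fold lower in the Slc26a5-high cells and none higher, against 13.9% and 7.27% of all genes. Their median log2 ratio was -1.33. Without the 10 cells high in the score 5 (23.8%) were lower and 1 (4.76%) higher, against 13.3% and 11.1% of all genes. The median was then -0.71. With all cells the summed level of the list ranged from 4555 to 14545 CPM (median 7003) against 4469 to 28207 CPM (median 9099). *Jun*, an immediate early transcription factor, ranged from 0.462 to 1317 CPM (median 271) against 61.7 to 2890 CPM (median 872), with 25.7% of pairs. *Egr1* had medians of 103 and 344 CPM, and *Fos* of 149 and 290 CPM. The log2 ratio of *Fos*, -1.08, was 0.20 without the 10 cells, and that of *Jun*, -1.09, was -0.82. *Atf3* had medians of 0 and 0.730 CPM and reached 73.5 and 868 CPM, and nearly all of it in the Slc26a5-high set was in 1 cell. In the Slc26a5-low set P14_iOHC 2, 14, 17, 23, 28, 31, 34, 38, 43, 44 and 45 had 113 to 868 CPM. The other Slc26a5-low cells had 0.730 CPM or less. Of 8 cell stress and death genes, none was past 2-fold with all cells.

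**Figure D4:**
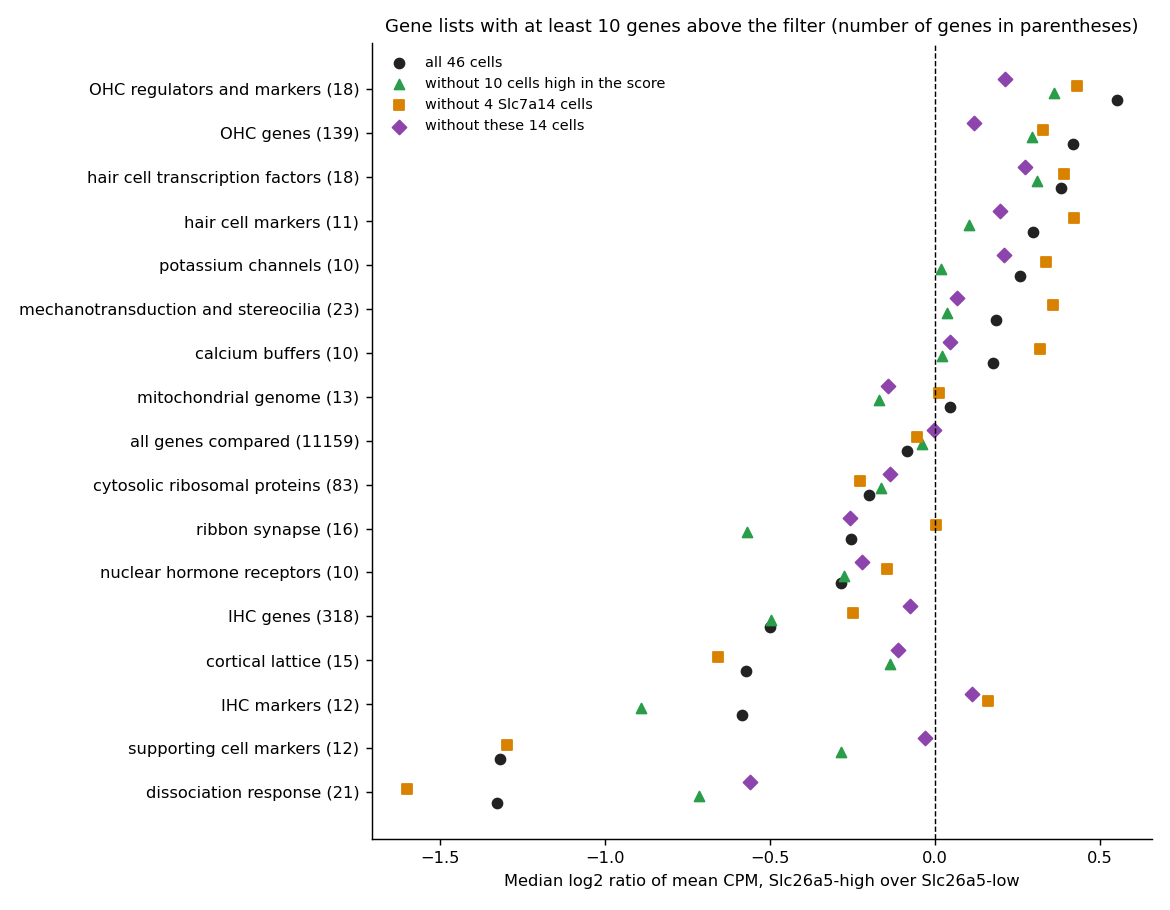
Median log2 ratio of mean CPM (Slc26a5-high over Slc26a5-low, x axis) of each gene list with at least 10 genes above the filter (y axis, number of genes in parentheses). Circles use all 46 cells, triangles leave out the 10 cells high in the supporting-cell score, squares the 4 *Slc7a14* cells and diamonds all 14. The IHC markers go from -0.58 to 0.16 without the 4 cells, and the OHC regulators and markers from 0.55 to 0.21 without the 14.

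Other genes were not chosen for their function. They were taken by size of the ratio from genes past 2-fold, widely detected in the higher set, in the same direction in at least 65% of pairs, and still past 2-fold without any 1 cell. In all, 42 genes met these terms as higher and 64 as lower in the Slc26a5-high cells, and the 8 with the largest ratios each way follow.

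The 8 higher genes were *Gm44676*, *Mpped1*, *Gipc3*, *Lancl2*, *Plxna1*, *Nav2*, *Trip4* and *Qpctl*, with log2 ratios from 2.49 to 1.56. *Gipc3*, a PDZ-domain protein needed for hearing, ranged from 0.0814 to 294 CPM (median 44) against 0.317 to 70.5 CPM (median 13.9). It was 3.90-fold higher, with 79.8% of pairs and a rho of 0.61, and its log2 ratio was 1.63 without the 14 cells. Its level in P14_WT IHCs was 68.9 ± 50.2 CPM (SD, n = 55 cells), close to the 74.3 ± 73.1 CPM of the Slc26a5-high cells. *Mpped1*, a metallophosphoesterase-domain gene, ranged from 0 to 298 CPM (median 58.4) against 0 to 116 CPM (median 3.59), with counts in 21 and 15 cells and in 8 of 55 P14_WT IHCs. *Plxna1*, a semaphorin receptor, had medians of 52.4 and 2.93 CPM, with 75.0% of pairs. *Nav2*, a neuron navigator, had medians of 34.7 and 13.1 CPM. *Gm44676* has no experimentally settled transcript class in the annotation and had medians of 55.7 and 0.0590 CPM.

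The 8 lower genes were *Nin*, *Ceacam16*, *Map3k2*, *Gm34220*, *Spry2*, *Zfp36*, *Gm15542* and *Ppp1r15b*, with log2 ratios from -2.65 to -1.99. *Nin*, which encodes ninein, a protein that anchors microtubules at the centrosome, ranged from 0 to 96.8 CPM (median 0.0691) against 0 to 194 CPM (median 54.6). It had counts in 12 Slc26a5-high and 20 Slc26a5-low cells, in only 18.6% of pairs was the Slc26a5-high cell higher, and rho was -0.66. Its log2 ratio was -2.11, -2.57 and -1.76 without the 10, the 4 and the 14 cells. *Ppp1r15b*, a phosphatase subunit of the stress response, had medians of 0.0814 and 26.7 CPM, with a rho of -0.55. *Spry2*, an inhibitor of receptor tyrosine kinase signalling, was at 5.04 ± 6.95 and 23.8 ± 27.7 CPM. *Ceacam16*, a tectorial membrane protein, was at 201 ± 344 and 1166 ± 2489 CPM, and its log2 ratio of -2.54 was -1.14 without the 10 cells high in the score. *Gm15542* is annotated as a processed pseudogene and may share reads with its parent gene.

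Of 3611 genes that reached 5 counts in 80% or more of the 46 cells, the 5 with the highest rho with *Slc26a5* were *Sri*, *Gm5737*, *Reep5*, *Slk* and *Lpin2*, with values from 0.66 to 0.64. *Reep5*, which shapes the endoplasmic reticulum, ranged from 322 to 1062 CPM (median 618) against 188 to 819 CPM (median 387). The ranges overlapped, but in 89.6% of pairs the Slc26a5-high cell was higher. The log2 ratio of *Reep5* was 0.73 with all cells and 0.61 without the 14, and P14_WT IHCs had 342 ± 133 CPM (SD, n = 55 cells). *Gm5737* ranged from 335 to 2420 CPM against 107 to 1396 CPM, and *Slk*, a kinase of the cytoskeleton, from 80.5 to 925 CPM against 2.28 to 769 CPM. The 5 with the lowest rho were *Spcs2*, *Gm12070*, *Zscan26*, *Ptbp3* and *Rpl3*, from -0.62 to -0.55. *Spcs2*, a subunit of the signal peptidase, ranged from 0 to 388 CPM (median 88.7) against 0 to 365 CPM (median 200), with 24.4% of pairs. *Gm12070* is a processed pseudogene, and *Rpl3* is a ribosomal protein gene with many copies, so their reads may be shared with paralogs.

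**Figure D5:**
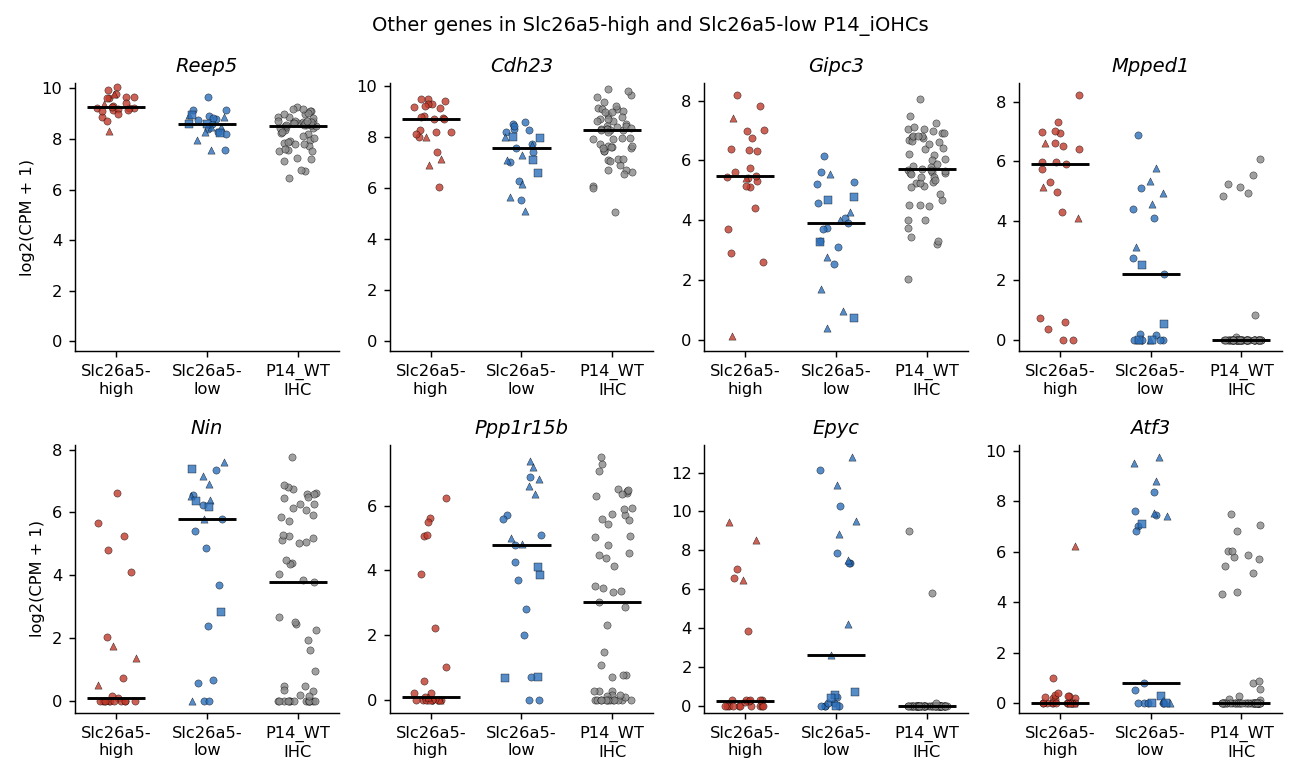
Levels of 8 further genes as log2(CPM + 1) on the y axes in single Slc26a5-high (red, 23), Slc26a5-low (blue, 23) and P14_WT IHC (grey, 55) cells, with bars at the median. The medians of *Reep5* were 618 and 387 CPM and those of *Nin* 0.0691 and 54.6 CPM in the Slc26a5-high and Slc26a5-low cells. *Atf3* had a median near 0 in both, but reached 73.5 CPM in the Slc26a5-high and 868 CPM in the Slc26a5-low cells.

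Other orderings of the same 46 cells were set against this one, where an ordering unrelated to *Slc26a5* would divide about evenly. Of the 23 iOHCs with the most *Slc17a8*, 9 were Slc26a5-high and 14 Slc26a5-low. The numbers were 12 and 11 for *Tbx2* and 10 and 13 for the supporting-cell score, both near an even division. They were 13 and 10 for *Otof* and for *Ocm*, 14 and 9 for *Ikzf2*, and 15 and 8 for *Lbh*.

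Since Tbx2 binds DNA through the T-box sequence AGGTGTGA, the 250 bases before the start of *Slc26a5* are shown with those of *Strc*, an OHC gene in which the sequence occurs. Both are RefSeq sequences of GRCm38.p6 on the minus strand, *Slc26a5* at chr5:21865605-21865854 and *Strc* at chr2:121380941-121381190. Capitals mark AGGTGTGA, which was searched on both strands.
Slc26a5: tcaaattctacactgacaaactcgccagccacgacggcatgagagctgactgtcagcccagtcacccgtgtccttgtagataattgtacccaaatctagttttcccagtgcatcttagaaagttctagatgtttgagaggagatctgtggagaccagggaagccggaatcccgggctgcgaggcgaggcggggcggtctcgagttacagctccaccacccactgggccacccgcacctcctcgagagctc
Strc: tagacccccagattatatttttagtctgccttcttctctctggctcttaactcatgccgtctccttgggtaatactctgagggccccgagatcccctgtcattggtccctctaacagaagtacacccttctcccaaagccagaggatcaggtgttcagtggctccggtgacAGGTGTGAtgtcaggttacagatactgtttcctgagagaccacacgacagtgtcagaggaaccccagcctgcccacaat
The sequence was not in the window of *Slc26a5*, and it occurred once in that of *Strc*, starting 79 bases before the gene's start. Of all 32851 windows of this length, 1.12% held it, and of the 141 windows found for 104 of the OHC genes 2 (1.42%) did. A match is a description of letters, and none of the data here measure binding.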

How the data were processed

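Single hair cells were picked by hand and each was made into 1 library with the Smart-Seq HT kit. Per the paper's methods and the submitters' processing notes, the authors used FastQC (v0.11.9), Trimmomatic (v0.39), HISAT2 (v2.1.0) with GRCm38, StringTie (v1.3.5) and HTSeq (v0.10.0), and the deposited table holds raw counts per gene, whole numbers with no normalization. Reads carry no molecular identifiers, and the mice behind the cells are not given.

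CPM was the count over the column total times 1000000. The 46 P14_iOHCs were ranked by *Slc26a5* CPM and the first 23 set against the last 23. Genes with 5 counts or more in 10 cells or more were compared by the ratio of mean CPM, and past 2-fold is the size rule used for counts. Each set counts as a single sample, so no test was run. Named genes were any of the gene lists, the 8 largest ratios each way that met the rule on detection, pairs and left-out cells, and the 5 highest and 5 lowest values of Spearman's rho. The members and lists were chosen with earlier results of these data known. Totals of 6059570 to 22963196 counts put 3 counts at 0.131 to 0.495 CPM, and this covers counting error only. The code of the comparison was tested on simulated data with known, large changes in genes with many counts. This checks the calculation and does not cover genes with few counts. Alternatives used edgeR 4.0.16 (TMM) and DESeq2 1.42.0 (size factors) for scaling alone, other filters, other sizes, other splits and fewer cells. Python 3.11.15, pandas 2.3.3, numpy 2.4.6 and scipy 1.17.1 were used.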

Additional observations from a re-analysis of the deposited data

How the results depend on the processing

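No paired analysis was possible because no animal is named for the cells and no result comes from a test. With all cells 811 genes were past 2-fold higher and 1547 lower in the Slc26a5-high cells, with 18 OHC genes higher, 90 IHC genes lower, and median log2 ratios of 0.42 (OHC genes) and -0.50 (IHC genes). Leaving out each cell in turn gave 789 to 864 genes higher, 1487 to 1677 lower, 15 to 22 OHC genes higher, 79 to 100 IHC genes lower, medians of 0.38 to 0.49 and -0.54 to -0.42, differences in the supporting-cell score of -0.83 to -0.60 and in detected genes of -760 to -459.

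DESeq2 size factors gave 1679 genes higher and 1184 lower, a median of 0.18 over all genes and an IHC median of -0.27. Relative to the median of all genes, the IHC median was -0.45, against -0.41 with the totals. With no filter 5464 genes were higher and 8328 lower, and with 5 counts in 23 cells 258 and 437, with 40 IHC genes lower. The difference of mean log2(CPM + 1) gave 44 OHC genes higher with a median of 0.70. With log2(CPM + 0.1) 2887 genes were lower, 56 OHC genes higher and 143 IHC genes lower, with medians of 0.81 and -0.79. The ratio of median CPM + 1 gave 36 OHC genes higher and medians of 0.67 and -0.25. The top 15 against the bottom 15 cells gave 51 OHC genes higher and medians of 0.78 and -0.84. Among the shallower libraries (up to 10267217 counts, 5 Slc26a5-high and 7 Slc26a5-low cells), 1956 genes were higher, 3475 lower and 149 IHC genes lower, the IHC median was -0.85, and the log2 ratio of *Sox10* was 0.34. Ranking within each set of totals, or by TMM-scaled *Slc26a5*, swapped cells and gave a log2 ratio of -0.52 for *Rfx1*. Without the 10 cells high in the supporting-cell score 1240 genes were higher, the log2 ratio of *Fos* was 0.20 and the difference in detected genes was 143, which was 406 without all 14. The sets without the 4 *Slc7a14* cells and without all 14 were chosen after seeing the data. Without the 4 cells the IHC median was -0.25, and the log2 ratios were 0.054 for *Rims2*, 0.0025 for *Slc17a8* and 0.61 for *Slc24a3*. Without the 14 cells 1631 genes were higher and 49 IHC genes lower, the medians were 0.12 and -0.073, and the log2 ratios were 0.29 for *Fos*, 0.59 for *Rps6ka2* and 0.17 for *Slc24a3*. Apart from what the sets of cells show by their construction, the cause was not tested. No cell was over 3 median absolute deviations from the median number of detected genes, so that setting gave no value.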
